A study of Homo sapiens with 22 samples.

Results

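The 10 genes of melanin synthesis and of the melanosome followed here were chosen as the rows carrying their symbols in the 3 single-cell gene lists. All 10 were found among 33538 genes of the first list and among 36601 genes of the other lists. The members are PMEL and MLANA, TYR, TYRP1 and DCT, SLC45A2, OCA2 and SLC24A5, GPR143, and RAB27A. The study compared drug-susceptible melanoma cells with primed cells, a state more likely to survive BRAF and MEK inhibition, in BRAF-mutant lines. The paper describes the primed state as rare in WM989. Untreated, barcoded WM989 cells (clone A6-G3) had been sorted as a mixed population or as EGFR-high and NGFR-high cells and expanded before single-cell RNA sequencing, and they were distributed over 8 wells that form 1 sample. By the methods each sorted culture was loaded over 2 wells, and the cell labels put wells 1 to 4 in r1 and wells 5 to 8 in r2, so wells share cultures and are not 8 independent ones. Untreated WM983B cells (clone E9-D5) were 1 further sample. In a treatment experiment, WM989 cells were expanded and split, within each of 2 replicates, over 4 plates that were left untreated or given TGFB1 (the ligand), the TGF-β receptor inhibitor LY2109761 (TGFBRi) or the PI3K inhibitor GDC-0941 (PI3Ki). The treatment labels of 1 replicate begin with Mix and those of the other with Primed, words that the labels do not explain. By the methods the 2 were carried in parallel as replicates. Untreated cells were 2.26% primed in r1 and 4.47% in r2, and whether the replicates started alike is not known. ATAC-seq covered untreated WM989 cells sorted as EGFR-high, NGFR-high, EGFR/NGFR-high or negative for both markers (labelled Mix), with 3 libraries each. Both lines had been derived through single-cell bottlenecks and each stands for 1 clonal background.

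Melanin is made inside melanosomes, lysosome-related organelles of pigment cells. PMEL forms the fibrils on which pigment is laid down, and MLANA, the antigen MART-1, helps PMEL mature. Tyrosinase (TYR) carries out the rate-limiting oxidation of tyrosine, and TYRP1 and dopachrome tautomerase (DCT) act on later intermediates. SLC45A2 and OCA2 set melanosome pH, SLC24A5 is an intracellular cation exchanger, GPR143 is a receptor of the melanosome membrane that controls melanosome number and size, and RAB27A is the GTPase that tethers mature melanosomes to the actin transport machinery. MITF, with SOX10 acting upstream of it, is the transcription factor known to drive most of these genes by binding E-box sequences.

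Promoters of 5 members are shown because they place the enzymes and transporters beside the motif that MITF is known to bind, CATGTG. Each line gives RefSeq sequence of GRCh38.p14 from 250 bases before to 50 bases after the annotated start, read 5′ to 3′ on the gene's strand, with CATGTG or its complement CACATG in capitals. TYR lies at chr11:89177625-89177924 (plus strand), TYRP1 at chr9:12693135-12693434 (plus), DCT at chr13:94479633-94479932 (minus), OCA2 at chr15:28099266-28099565 (minus) and SLC24A5 at chr15:48120740-48121039 (plus).
TYR: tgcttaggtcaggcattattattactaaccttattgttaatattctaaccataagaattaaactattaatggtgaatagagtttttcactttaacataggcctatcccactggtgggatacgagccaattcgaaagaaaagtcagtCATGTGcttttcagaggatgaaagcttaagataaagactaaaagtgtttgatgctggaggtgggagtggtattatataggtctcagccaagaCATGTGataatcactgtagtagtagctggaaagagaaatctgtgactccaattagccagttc
TYRP1: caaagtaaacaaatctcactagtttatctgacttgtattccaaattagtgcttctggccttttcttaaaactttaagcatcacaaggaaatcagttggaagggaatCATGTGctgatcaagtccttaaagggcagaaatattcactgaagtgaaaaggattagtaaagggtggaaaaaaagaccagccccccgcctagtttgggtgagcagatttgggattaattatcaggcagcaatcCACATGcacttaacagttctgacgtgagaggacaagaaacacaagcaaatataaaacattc
DCT: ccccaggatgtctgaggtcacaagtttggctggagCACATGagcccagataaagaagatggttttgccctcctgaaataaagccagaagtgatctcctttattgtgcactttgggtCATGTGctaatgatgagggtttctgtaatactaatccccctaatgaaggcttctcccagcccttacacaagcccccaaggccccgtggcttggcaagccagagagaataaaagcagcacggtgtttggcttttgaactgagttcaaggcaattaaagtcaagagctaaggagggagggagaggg
OCA2: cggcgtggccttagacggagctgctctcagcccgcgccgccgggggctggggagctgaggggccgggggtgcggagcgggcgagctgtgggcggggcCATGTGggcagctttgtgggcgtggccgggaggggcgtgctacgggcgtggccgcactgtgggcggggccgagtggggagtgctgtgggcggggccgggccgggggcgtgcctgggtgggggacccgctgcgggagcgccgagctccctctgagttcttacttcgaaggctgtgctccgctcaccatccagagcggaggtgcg
SLC24A5: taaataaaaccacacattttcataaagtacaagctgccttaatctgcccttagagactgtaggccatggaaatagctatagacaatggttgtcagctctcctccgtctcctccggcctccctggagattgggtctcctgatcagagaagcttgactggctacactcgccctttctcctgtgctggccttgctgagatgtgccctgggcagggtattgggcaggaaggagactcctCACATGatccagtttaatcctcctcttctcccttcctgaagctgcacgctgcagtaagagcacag

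The first base of CATGTG lay 104 and 12 bases before the TYR start. TYRP1 held the motif 144 bases before its start and, on the opposite strand, 11 bases before it. DCT held it at 134 bases, and on the opposite strand at 215 bases, before its start. OCA2 had a single match 153 bases before the start, and SLC24A5 a single match on the opposite strand 15 bases before it. GPR143 also had 2 matches, whereas the MLANA window had none. Thus 6 of 7 members with a window at the canonical start matched, against 11.1% of 35116 windows of the same length searched on both strands. The longer AGTCATGTG, which contains CATGTG, was found in the TYR window and in 0.231% of all windows. A match describes the letters in these windows only. No window at the canonical start was used for PMEL, SLC45A2 or RAB27A.

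On GRCh38 (GENCODE v44) the genes occupy chr12:55954105-55973317 (PMEL), chr9:5890889-5910606 (MLANA), chr11:89177875-89295759 (TYR), chr9:12685439-12710285 (TYRP1) and chr13:94436811-94479682 (DCT). The transporters span chr5:33944623-33984693 (SLC45A2), chr15:27754875-28099315 (OCA2) and chr15:48120990-48142672 (SLC24A5). GPR143 spans chrX:9725346-9786297 and RAB27A chr15:55202966-55319113. The canonical start of PMEL lies 788 bases from that of CDK2, which is on the opposite strand.

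The first experiment held 12531 cells (2843 primed and 9688 drug-susceptible) and 750662838 unique molecular identifiers (UMIs), with 408 to 3841 cells per well. WM983B gave 1449 cells and 102738398 UMIs. Of these cells 731 were called primed and 718 drug-susceptible, so the primed cells were not a rare part of this sample. The 8 treatment libraries held 3692 to 6273 cells and 70239657 to 122420544 UMIs each, 40021 cells in all. Of the distinct cell barcodes, 0.152% were shared between wells of the first experiment and 0.487% between libraries of the treatment experiment. The state and cluster of each cell were the authors' own calls from the same counts, so levels by state are described without a test. In untreated WM989, 4 primed-state markers (EGFR, AXL, NGFR, NT5E) summed to 316 CPM (UMIs scaled to a total of 1000000) in primed cells, against 29.3 CPM in the drug-susceptible ones, and 4 melanocytic identity genes (SOX10, MITF, PAX3, S100B) to 149 and 1035 CPM, a sum carried by S100B and MITF, while PAX3 alone was higher in primed cells (25.9 against 18.4 CPM). In WM983B the primed markers summed to 221 and 79.6 CPM, and the identity genes to 1453 and 1394 CPM. S100B made up most of that sum (1039 and 771 CPM), while MITF was at 197 CPM in the primed cells, against 392 CPM in the others. The 8 markers of leukocytes, endothelium and epithelium summed to 25.4 CPM in the primed and 0.668 CPM in the other untreated WM989 cells, of which PECAM1 gave 22.8 CPM in primed cells and CD3E and KRT5 had no UMI there. That list summed to 1.95 and 0.890 CPM in WM983B, and to 10.6 and 0.603 CPM in the treatment experiment. Mitochondrial genes took 8.31% of primed and 14.4% of drug-susceptible UMIs in untreated WM989. The part of PECAM1-bearing cells and of free RNA in the values below was not tested, and no cell type that should lack these genes was sequenced. The ratios between states were recomputed with totals that left out mitochondrial and ribosomal protein genes, 1 of several alternatives. Over these alternatives 72 of 80 member ratios stayed the same. The other 8 moved by more than the spread between wells (WM989) or the counting error (WM983B). What mitochondrial share contributes beyond the totals was not tested.

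In untreated WM989 cells, 9 of the 10 genes were lower in primed cells and OCA2 was higher. A total of 7 members were lower by over 2-fold, against 7.91% of 13194 genes with at least 1 CPM in a state that were lower by that much and 13.7% that were higher. The sum of all 10 was 275 CPM in primed cells, against 4754 CPM in drug-susceptible ones. Overlap between the states across wells is described below for the members only. No share over all genes is given for it, the wells share cultures, and the states were called from these counts. It is therefore not a result about these genes in particular. A UMI counts each captured transcript once, whatever its length, so these levels need no length scaling.

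PMEL and MLANA, the structural and antigen genes, were the most abundant members in drug-susceptible cells. With all primed cells pooled RAB27A (65.2 CPM) lay above MLANA (59.0 CPM), but the medians over wells had the opposite order (63.1 and 81.9 CPM). PMEL ran from 1697 to 2523 CPM (median 2105) in the drug-susceptible cells of the 8 wells and from 28.0 to 199.8 CPM (median 104) in the primed cells. MLANA ran from 1307 to 1839 CPM (median 1601) in drug-susceptible and from 18.2 to 177 CPM (median 81.9) in primed cells. The states did not overlap for either gene. Within a well, PMEL was 11.5-fold to 68.9-fold (median 22.4) and MLANA 10.4-fold to 73.7-fold (median 20.1) higher in drug-susceptible cells.

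Of the enzymes, DCT showed the widest gap, TYR a similar one, and TYRP1 hardly any. DCT ran from 351 to 1148 CPM (median 613) in drug-susceptible and from 10.8 to 48.3 CPM (median 19.0) in the primed ones, a ratio of 12.9 to 106 within wells. TYR ran from 68.0 to 110 CPM (median 82.4) and from 1.67 to 13.5 CPM (median 4.96), a ratio of 6.08 to 63.1. Neither enzyme overlapped between the states. TYRP1 was low in both states, at 1.5 to 3.61 CPM and 0.694 to 2.05 CPM, and its states overlapped even though 7 of 8 wells had the lower value in primed cells.

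The transporters did not move as a group. SLC45A2 ran from 62.3 to 115 CPM (median 70.1) in drug-susceptible and from 11.8 to 19.1 CPM (median 15.1) in primed cells. SLC24A5 ran from 31.2 to 50.3 CPM (median 41.4) and from 4.91 to 11.4 CPM (median 6.89). Both were lower in the primed cells of all 8 wells without overlap. OCA2 went the other way in each of the 8 wells, from 0.194 to 0.691 CPM (median 0.272) in drug-susceptible and from 1.63 to 4.94 CPM (median 3.48) in the primed ones, although even its primed level was among the lowest of the 10 genes.

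The receptor and the GTPase had the smallest gaps among the genes that did not overlap. GPR143 ran from 78.2 to 92.2 CPM (median 87.8) in drug-susceptible and from 30.8 to 54.5 CPM (median 35.8) in the primed ones, a within-well ratio of 1.64 to 2.83. RAB27A ran from 114 to 155.5 CPM (median 122) and from 52.3 to 67.8 CPM (median 63.1), a ratio of 1.73 to 2.36. In primed cells PMEL, MLANA, RAB27A and GPR143 had the highest medians of the 10 genes.

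In the drug-susceptible cells the order of the medians was PMEL, MLANA, DCT, RAB27A, GPR143, TYR, SLC45A2, SLC24A5, TYRP1 and OCA2. PMEL and MLANA overlapped across wells, as did GPR143, TYR and SLC45A2. DCT lay below MLANA in range, RAB27A lay above GPR143 and SLC24A5 lay below SLC45A2, without overlap.

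**Figure D1:**
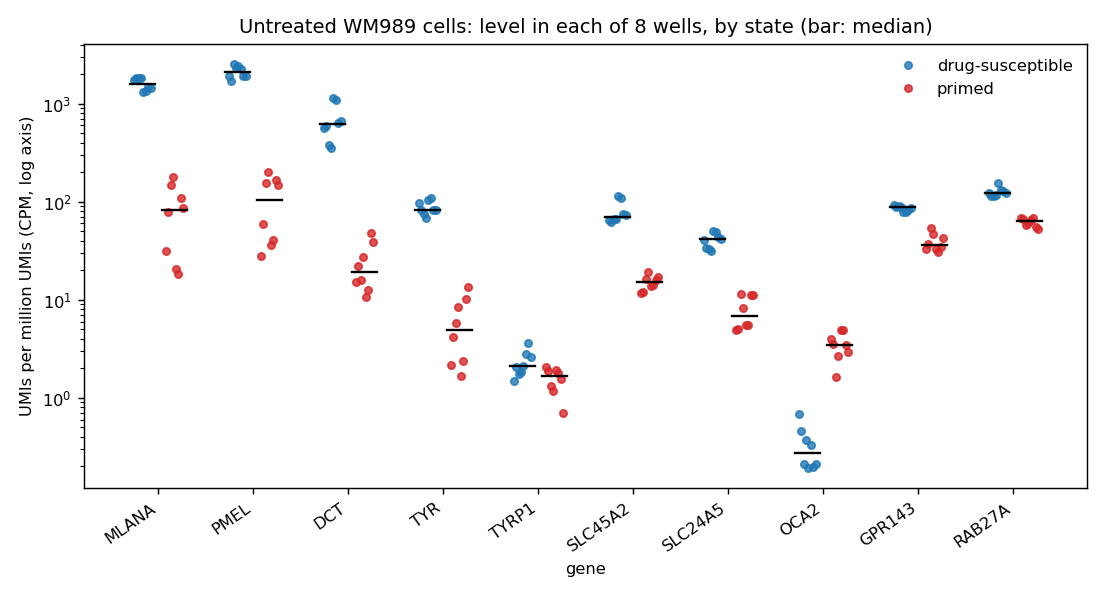
Level (CPM, log axis) of the 10 genes in the drug-susceptible (blue) and primed (red) cells of each of 8 wells of untreated WM989, with the median as a bar. In this plot OCA2 is higher in the primed cells (median 3.48 against 0.272 CPM) and TYRP1 overlaps. The other genes are lower in the primed cells of every well. The states were called from these counts, and the share of all genes without overlap is not given. The separation is therefore not a result about these genes in particular.

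The primed cells were not uniform. Wells 3, 4, 7 and 8, in which 6.85% to 9.42% of cells were primed, had MLANA at 148, 177, 108 and 85.3 CPM in their primed cells. Wells 1, 5 and 6, in which 56.9% to 79.7% were primed, had 31.6, 20.8 and 18.2 CPM, and well 2 (62.4% primed) had 78.6 CPM. PMEL followed, at 155, 200, 165 and 149 CPM in wells 3, 4, 7 and 8 and at 28.0 to 59.7 CPM in the other 4 wells. The wells with few primed cells held those cells mostly in cluster 8 (52.6% to 73.4%), against 8.97% in well 2. Cluster 8 had MLANA at 235 CPM, PMEL at 220 CPM and DCT at 72.5 CPM, the primed clusters 2 and 9 had MLANA at 24.2 and 26.9 CPM, and the lowest PMEL of a drug-susceptible cluster was 911 CPM (cluster 3). Within cluster 9 alone, MLANA still ran from 57.9 to 100.3 CPM in wells 3, 4, 7 and 8 and from 8.0 to 23.9 CPM in the other wells. The methods loaded mixed and EGFR/NGFR-high cultures into separate wells, and the labels do not say which wells held which, so the share of primed cells in a well and its sort cannot be told apart. Wells with few primed cells had more drug-susceptible cells as a source of free RNA, and their primed cells sat mostly in another cluster, and the part of either was not tested.

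The drug-susceptible clusters differed less among themselves than the states did, with exceptions. TYR ran from 57.7 CPM in cluster 3 to 113 CPM in cluster 4, and was 14.3 CPM in the primed cluster 8 against 1.94 CPM in cluster 2. TYRP1 was at 6.64 CPM in cluster 10 and at most 2.77 CPM in every other cluster. SLC45A2 ran from 34.6 CPM in cluster 3 to 110 CPM in cluster 5. OCA2 was highest in the primed clusters 9 (5.48 CPM) and 2 (3.95 CPM), lower in cluster 8 (1.81 CPM), and at most 0.391 CPM in a drug-susceptible cluster. The drug-susceptible level of DCT was 351 to 590 CPM in the 4 wells of r1 and 636 to 1148 CPM in the 4 wells of r2, a difference between 2 replicates whose wells share cultures.

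The gap between the states stood in every cell cycle phase that the authors called. MLANA was at 50.2, 106 and 63.8 CPM in primed cells of G1, S and G2M, against 1810, 1645 and 1646 CPM in drug-susceptible cells of those phases. PMEL was at 56.8, 126 and 69.3 CPM against 2620, 2067 and 1952 CPM. Primed cells thus had their highest PMEL and MLANA in S phase and drug-susceptible cells in G1. Phase calls rest on the same counts and no replicate test was made.

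Per cell, the median sum of the 10 genes was 179 CPM for primed and 4660 CPM for drug-susceptible WM989 cells, with 5th to 95th percentiles of 63.1 to 832 and 1509 to 8570 CPM. With every cell thinned to 10000 UMIs, a median of 1 member had a UMI in primed and 5 in drug-susceptible cells, and 16.6% of primed against 0.0413% of drug-susceptible cells had no member. MLANA had a UMI in 21.9% of primed and 99.5% of drug-susceptible thinned cells, DCT in 8.30% and 84.8%, and OCA2 in 3.41% and 0.268%. Without thinning the median was 4 members against 8, at 58253 and 52835 median UMIs. These shares cover counting error only, and free RNA puts a UMI in cells that do not express a gene.

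**Figure D2:**
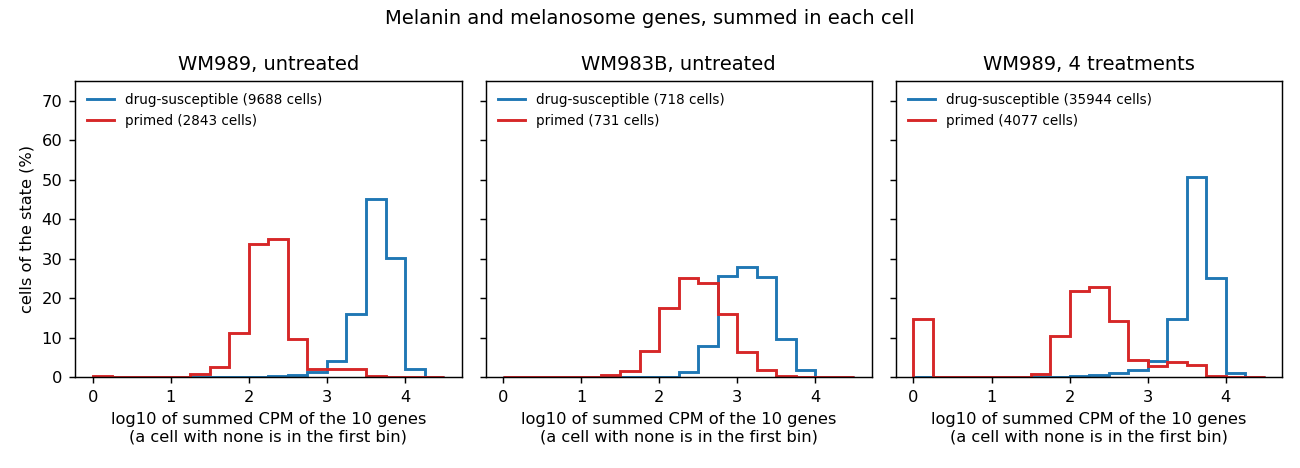
Share of cells (%) by log10 of the summed CPM of the 10 genes, for drug-susceptible (blue) and primed (red) cells of untreated WM989, untreated WM983B and WM989 with 4 treatments; a cell with none of the genes is in the first bin. The states separate most in WM989 (medians 179 and 4660 CPM) and overlap more in WM983B.

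In WM983B the same genes were lower in primed cells, but from other starting levels, and in 1 library without replicates. A total of 9 of the 10 genes were lower by over 2-fold in primed cells, where 1.37% of 13769 genes were lower by that much and 2.87% higher. MLANA was at 2.40 CPM in primed cells, against 59.8 CPM in the drug-susceptible ones. PMEL was at 210 and 895 CPM and DCT at 87.1 and 423 CPM. TYR was the exception, at 57.1 CPM (95% exact Poisson interval 55.0 to 59.2) in primed and 67.9 CPM (65.7 to 70.1) in drug-susceptible cells, intervals that cover counting error only. SLC45A2 was at 8.95 and 35.4 CPM, SLC24A5 at 10.7 and 31.4 CPM, GPR143 at 27.8 and 65.7 CPM and RAB27A at 28.4 and 77.7 CPM. OCA2 was lower in the primed cells of this line, at 6.49 and 18.8 CPM, opposite to its direction in WM989, and TYRP1 was at 1.78 and 8.63 CPM. By cluster, TYR was 51.9 and 91.3 CPM in the primed clusters 0 and 2 and 70.4 and 52.5 CPM in the drug-susceptible clusters 1 and 3. PMEL was at 185 and 376 CPM in clusters 0 and 2, and at 969 and 439 CPM in clusters 1 and 3. Cluster 3, although called drug-susceptible, had AXL, NGFR and NT5E nearer to cluster 2 than to cluster 1, and EGFR nearer to cluster 1. AXL was at 53.2 CPM in cluster 3, 45.6 CPM in cluster 2 and 19.5 CPM in cluster 1. NGFR was at 30.3, 42.5 and 9.39 CPM and NT5E at 72.1, 94.2 and 35.9 CPM in these clusters, and EGFR at 2.14, 1.86 and 2.22 CPM. With cells thinned to 30000 UMIs, MLANA had a UMI in 4.79% of primed and 38.9% of drug-susceptible WM983B cells, DCT in 35.3% and 90.9%, OCA2 in 17.1% and 36.1%, and PMEL in 90.6% and 99.7%. PMEL therefore stayed detectable in most primed cells of this line.

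Of the transcription factors of the lineage, MITF was lower in the primed cells of both lines, by a smaller ratio in WM983B. SOX10 was much lower in primed WM989 cells but differed little between the states of WM983B, and PAX3 was not lower over the primed cells of either line. MITF was at 45.7 CPM in the primed WM989 cells, against 313 CPM in the drug-susceptible ones, and SOX10 at 7.09 and 130 CPM. In WM983B, MITF was at 197 and 392 CPM and SOX10 at 192 and 208 CPM. The clusters of that line did not all follow their state. SOX10 was at 192 and 187 CPM in the primed clusters 0 and 2, and at 215 and 162 CPM in the drug-susceptible clusters 1 and 3. In the same order of clusters, MITF was at 188, 258, 420 and 220 CPM and PAX3 at 27.3, 18.1, 22.4 and 21.2 CPM. PAX3 was higher in primed cells, at 25.9 against 18.4 CPM in WM989 and 26.1 against 22.2 CPM in WM983B, and LEF1 was at 53.1 and 49.1 CPM in WM983B. Of 7 WM989 regulators with at least 1 CPM in a state, 5 were lower by over 2-fold in primed cells (MITF 6.86-fold, SOX10 18.3-fold, EDNRB 8.91-fold, LEF1 3.41-fold and TFAP2A 2.71-fold), against 1 of 8 in WM983B (KIT). Over all genes that share was 7.91% in WM989 and 1.37% in WM983B. Of other MITF targets, 3 of 7 were lower in each line, TRPM1 and CAPN3 in both and CDK2 in WM989 and ACP5 in WM983B. Of melanosome biogenesis genes, 6 of 23 were lower in WM989 (among them RAB38, TPCN2 and RAB32) and 0 of 23 in WM983B. Of the transport genes, MREG and SYTL2 were lower in WM989 and MLPH, the RAB27A effector melanophilin, was higher (2.3-fold in the ratio of CPM). In WM983B 0 of 5 transport genes differed by over 2-fold, and MLPH was at 11.8 CPM in primed cells, against 20.02 CPM in the others.

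Across the 24 WM989 clusters of both experiments, the genes whose log2(CPM + 1) followed the members' mean most closely, among 7353 genes, were PIR (Pearson r = 0.991), GAPDHS (0.987), GPM6B (0.985), BCAN (0.984), BACE2 (0.982), RLBP1 (0.979), GYG2 (0.974) and IGSF11 (0.973). The clusters share libraries and were defined from these counts, so r is a description with no p. Against the mean of the other members, MLANA had r = 0.978, PMEL 0.963, RAB27A 0.788, TYRP1 0.371 and OCA2 −0.957.

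The treatment experiment asked how the states respond to pushing or blocking TGF-β signalling and to blocking PI3K. Each of the 8 libraries gave 1 sum of counts per gene, which was fitted with edgeR's quasi-likelihood test with treatment and replicate as terms. Adjusted p-values are Benjamini-Hochberg over all genes tested. Each of the 2 replicates was split from its own expanded cells in parallel with the other. The p-values rest on the spread between these libraries, with 3 residual degrees of freedom, and on a spread that edgeR shared across genes. A very small adjusted p therefore does not reflect the spread of a gene's own libraries alone. All treatments were compared with the same 2 untreated libraries, so their changes are not independent of one another. Pooled over the treatments, the 10 genes summed to 604 CPM over 4077 primed cells, against 4647 CPM over 35944 drug-susceptible cells. The TGFB1 libraries gave 1577 and 1757 of these primed cells, and the untreated libraries 94 and 165. MLANA, PMEL and DCT were higher in untreated than in TGFB1 primed cells, so the pooled gap is not that of untreated cells. In both untreated libraries MLANA, PMEL, DCT and TYR were still lower in primed than in drug-susceptible cells. With PI3Ki replicate 1, DCT and TYR were instead higher in primed cells, but not with replicate 2. Of the primed clusters, cluster 4 was the lowest for PMEL (259 CPM), MLANA (83.4 CPM) and DCT (21.7 CPM), and cluster 10 lay above it (606, 249.9 and 80.1 CPM). Of the drug-susceptible clusters, the mostly TGFB1-treated cluster 3 had low MLANA (691 CPM) with high TYR (85.2 CPM), and the mostly PI3Ki-treated cluster 6 had high PMEL (3985 CPM) and TYR (88.2 CPM) with the lowest DCT (166.5 CPM). In a sum over all cells, less of a transcript per cell and fewer cells carrying it cannot be told apart.

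With TGFB1, 7 of the 10 members fell and 1 rose over all cells, where 12.7% of 18389 genes fell and 16.3% rose. The median log2 change was −0.43 over the members and 0.01 over all genes. MLANA was at 1118 and 1221 CPM in untreated and at 635 and 736 CPM in TGFB1 libraries, a log2 fold change of −0.79 ± 0.08 (SE, n = 2 against 2; edgeR adjusted p = 4.57e-08). DCT was at 386 and 397 CPM in untreated and 199 and 218 CPM in TGFB1 libraries (−0.92 ± 0.07, edgeR adjusted p = 4.57e-10). Neither gene overlapped between the treatments. PMEL (−0.46 ± 0.08), SLC45A2 (−0.54 ± 0.07), SLC24A5 (−0.59 ± 0.07), RAB27A (−0.40 ± 0.06) and GPR143 (−0.30 ± 0.06) also fell. OCA2 rose, from 0.218 and 0.299 CPM to 0.638 and 0.731 CPM (1.38 ± 0.28, edgeR adjusted p = 0.000488), on few UMIs. Primed cells gave 1 and 9 OCA2 UMIs in untreated and 40 and 41 in TGFB1 libraries. Drug-susceptible cells gave 16 and 15 in untreated and 11 and 21 in TGFB1 libraries. TYR (0.12 ± 0.07) and TYRP1 (0.10 ± 0.16) did not pass. The primed share went from 2.26% and 4.47% of cells in untreated to 29.1% and 31.3% in TGFB1 libraries, so the change in the share of states and the change within states are taken apart below. The summed list of other cell types was 3.79 and 2.96 CPM in the TGFB1 libraries against 0.513 to 1.01 CPM in the other 6.

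Within drug-susceptible cells, TGFB1 lowered 4 members and raised 1, against 6.32% of 17914 genes that fell and 8.56% that rose. MLANA went from 1134 and 1254 CPM to 822 and 964 CPM (−0.44 ± 0.08) and DCT from 392 and 409 CPM to 259 and 288 CPM (−0.56 ± 0.07). SLC45A2 (−0.24 ± 0.07) and SLC24A5 (−0.28 ± 0.07) fell, but SLC45A2 no longer passed without any 1 of the 4 libraries compared, and SLC24A5 not without TGFB1 replicate 1 or untreated replicate 2, and neither passed without the replicate block. TYR rose, from 56.6 and 60.7 CPM to 77.3 and 75.9 CPM (0.37 ± 0.07, edgeR adjusted p = 0.000358). PMEL did not pass (−0.12 ± 0.08, edgeR adjusted p = 0.389), and OCA2, higher over all cells, did not pass here (0.36 ± 0.40). TYRP1 (0.40 ± 0.16), GPR143 (−0.05 ± 0.06) and RAB27A (−0.12 ± 0.07) did not pass either. Cluster 3 of the drug-susceptible cells was mostly TGFB1-treated, so the libraries also differed in cluster makeup. In cluster 1 alone, a large drug-susceptible cluster where 5.75% of 13842 genes rose and 4.23% fell, MLANA (−0.33 ± 0.08), DCT (−0.39 ± 0.08) and SLC24A5 (−0.32 ± 0.09) fell, while TYR (0.22 ± 0.08), SLC45A2 (−0.04 ± 0.09), PMEL (0.07 ± 0.08), TYRP1 (0.66 ± 0.31), GPR143 (−0.10 ± 0.08) and RAB27A (0.03 ± 0.08) did not pass and OCA2 was removed by the filter.

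Within primed cells, 6 of 8 members tested fell with TGFB1, against 7.09% of 10930 genes, the filter on low counts having removed OCA2 and TYRP1. Without a test, OCA2 was at 2.61 CPM (10 UMIs) in untreated and 1.91 CPM (81 UMIs) in TGFB1 primed cells. Its rise over all cells was thus not seen as a higher level within primed cells. MLANA was at 204 and 199 CPM in untreated and 78.6 and 101 CPM in TGFB1 libraries (−1.08 ± 0.14, edgeR adjusted p = 1.04e-07). DCT was at 56.6 and 40.2 CPM in untreated and 21.2 and 24.0 CPM in TGFB1 libraries (−0.97 ± 0.17). PMEL (−0.54 ± 0.15), SLC45A2 (−0.61 ± 0.20), SLC24A5 (−0.89 ± 0.26) and RAB27A (−0.76 ± 0.15) also fell, and TYR (−0.15 ± 0.20) and GPR143 (−0.45 ± 0.17) did not pass. PMEL, SLC45A2 and SLC24A5 no longer passed without TGFB1 replicate 1 or with DESeq2, and neither did PMEL without untreated replicate 1, SLC24A5 without untreated replicate 2, or SLC45A2 without any 1 of the 4 libraries or without the filter on low counts. The 2 untreated libraries held 94 and 165 primed cells, and the TGFB1 libraries 1577 and 1757. Of the TGFB1 primed cells, 98.2% and 97.1% were in cluster 4, and of the untreated ones 94.7% and 96.4% in cluster 10.

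The direction turned when only cluster 10 was counted, with 29 and 51 TGFB1 cells. There PMEL rose from 555 and 380 CPM to 932 and 1540 CPM (1.44 ± 0.23, edgeR adjusted p = 0.000326), MLANA from 218 and 206 CPM to 320 and 422 CPM (0.83 ± 0.19, adjusted p = 0.0105), and TYR rose by 1.33 ± 0.34 on the log2 scale (adjusted p = 0.0309), where 1.04% of 9481 genes rose and 1.67% fell. DCT did not pass (0.28 ± 0.26), nor did SLC45A2 (1.05 ± 0.30), SLC24A5 (1.26 ± 0.37), GPR143 (0.12 ± 0.31) or RAB27A (0.25 ± 0.24), and OCA2 and TYRP1 were again removed by the filter. The clusters were called from the same counts, so the fall in the sum over primed cells and the cluster the cells were placed in cannot be told apart.

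**Figure D3:**
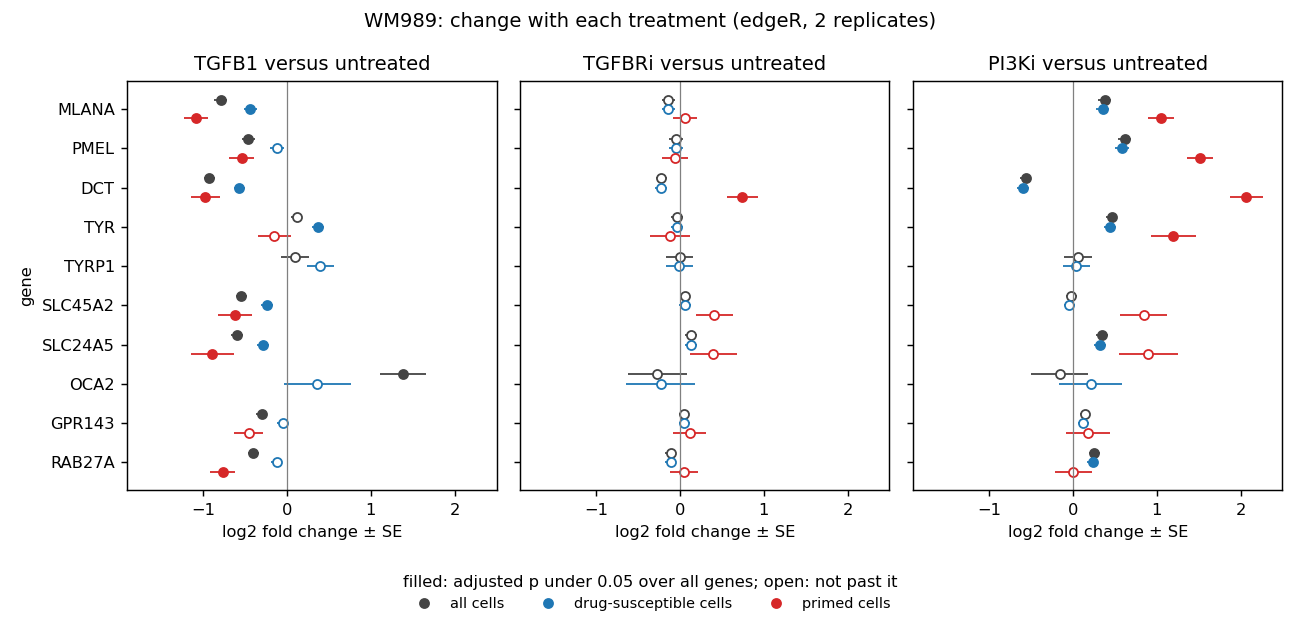
Log2 fold change (± SE, edgeR, 2 replicates) of each gene with TGFB1, TGFBRi and PI3Ki against untreated cells, over all cells (grey), drug-susceptible cells (blue) and primed cells (red); filled points passed the adjusted p of 0.05 over all genes. With TGFB1 the filled points lie left of 0 except OCA2 over all cells (1.38) and TYR in drug-susceptible cells (0.37), open points right of 0 belong to TYR and TYRP1 over all cells (0.12 and 0.10) and TYRP1 and OCA2 in drug-susceptible cells (0.40 and 0.36), and with PI3Ki DCT is lower in drug-susceptible cells (−0.59) and higher in primed cells (2.07).

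With TGFBRi no member passed over all cells (0 of 10 by edgeR, 1 at an unadjusted p under 0.05 and 1 by DESeq2, DCT), where 2.53% of genes passed in either direction and 13% had an unadjusted p under 0.05. DCT had the smallest p, at 317 and 349 CPM against 386 and 397 CPM (−0.22 ± 0.07, edgeR adjusted p = 0.0999). MLANA was −0.14 ± 0.08 and PMEL −0.05 ± 0.08, and the log2 changes of TYR, TYRP1, SLC45A2, OCA2, GPR143, SLC24A5 and RAB27A ran from −0.27 (OCA2) to 0.13 (SLC24A5). Drug-susceptible cells gave 0 of 10 by edgeR as well, with 1 at an unadjusted p under 0.05 (13.3% of genes) and 1 by DESeq2, where 2.81% of genes passed, and changes from −0.23 (OCA2) to 0.13 (SLC24A5). In primed cells DCT alone rose, at 83.3 and 75.3 CPM against 56.6 and 40.2 CPM (0.75 ± 0.18, edgeR adjusted p = 0.0478), where 0.0732% of genes rose, and MLANA, PMEL, TYR, SLC45A2, GPR143, SLC24A5 and RAB27A ran from −0.11 (TYR) to 0.41 (SLC45A2). That call was lost without any 1 of the 4 libraries compared, without the replicate term, with DESeq2, and in cluster 10 alone (0.67 ± 0.20, adjusted p = 0.525).

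With PI3Ki, 5 members rose over all cells and DCT fell, where 5.83% of genes rose and 6.83% fell. PMEL was at 2539 and 2332 CPM in untreated and 3418 and 3550 CPM in PI3Ki libraries (0.62 ± 0.08, edgeR adjusted p = 1.95e-05). TYR was at 56.1 and 59.8 CPM against 75 and 74 CPM (0.46 ± 0.07). MLANA (0.38 ± 0.08), SLC24A5 (0.35 ± 0.07) and RAB27A (0.26 ± 0.06) rose as well. DCT went down, from 386 and 397 CPM to 237 and 259 CPM (−0.56 ± 0.07, edgeR adjusted p = 6.94e-06), so an enzyme fell while the antigen genes and TYR rose. TYRP1 (0.06 ± 0.16), SLC45A2 (−0.02 ± 0.06), OCA2 (−0.16 ± 0.34) and GPR143 (0.15 ± 0.06) did not pass. The count was 3 without PI3Ki replicate 2 or without untreated replicate 1, where MLANA, RAB27A and SLC24A5 no longer passed, and MLANA and RAB27A also did not without untreated replicate 2. SLC24A5 and RAB27A were also lost without the replicate block. PMEL, TYR and DCT passed in all 8 alternatives run.

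In drug-susceptible cells MLANA, PMEL, TYR, SLC24A5 and RAB27A rose with PI3Ki and DCT fell, with PMEL at 0.59 ± 0.08 and DCT at −0.59 ± 0.07, where 5.89% of genes rose and 6.22% fell. TYRP1 (0.04), SLC45A2 (−0.04), OCA2 (0.22) and GPR143 (0.13) did not pass. The calls of MLANA and RAB27A were lost without PI3Ki replicate 2 or either untreated library, that of SLC24A5 without PI3Ki replicate 2 or untreated replicate 1 and in cluster 1 alone, and that of RAB27A also without PI3Ki replicate 1, while without the replicate block none of these 3 passed. Primed cells were rare, with 25 and 70 cells in the PI3Ki libraries. In them MLANA was at 536 and 369 CPM against 204 and 199 CPM in untreated (1.05 ± 0.16), PMEL at 1686 and 1008 CPM against 519 and 367 CPM (1.52 ± 0.16) and TYR at 126 and 45.6 CPM against 26.1 and 30.6 CPM (1.2 ± 0.27). DCT was at 273 and 168 CPM against 56.6 and 40.2 CPM (2.07 ± 0.19, edgeR adjusted p = 8.65e-10). These 4 of 8 members tested rose, where 0.467% of genes rose, and SLC45A2 (0.85 ± 0.28), SLC24A5 (0.90 ± 0.35), GPR143 (0.18 ± 0.26) and RAB27A (0.01 ± 0.22) did not pass. The primed-state markers of these cells also differed in level: AXL was at 4.0 CPM with PI3Ki against 25.9 CPM in untreated and NGFR at 36.0 against 104 CPM, with NT5E at 84.8 against 103 CPM and EGFR at 19.2 against 9.67 CPM. Their part in the result was not tested. The TYR call was kept in 5 of 9 alternatives (it was lost without PI3Ki replicate 1, without untreated replicate 1, without the replicate block and in cluster 10 alone) and the other 3 in all 9. These sums rested on few cells. The 5 primed cells with the most DCT held 88.5% and 61.7% of its UMIs in PI3Ki and 72.4% and 59.0% in untreated libraries. For PMEL the top 5 cells held 80.9% and 43.6% in PI3Ki and 39.9% and 27.7% in untreated libraries, for MLANA 79.7% and 56.5% against 52.9% and 31.7%, and for TYR 58.3% and 38.6% against 42.9% and 27.6%. Thinned to 5000 UMIs, 6 of 24 and 14 of 68 PI3Ki primed cells had a DCT UMI in the 2 libraries, against 13 of 93 and 17 of 162 in untreated, 19 of 115 and 31 of 266 in TGFBRi, and 64 of 1577 and 97 of 1756 in TGFB1 libraries. These counts are given without a test.

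**Figure D4:**
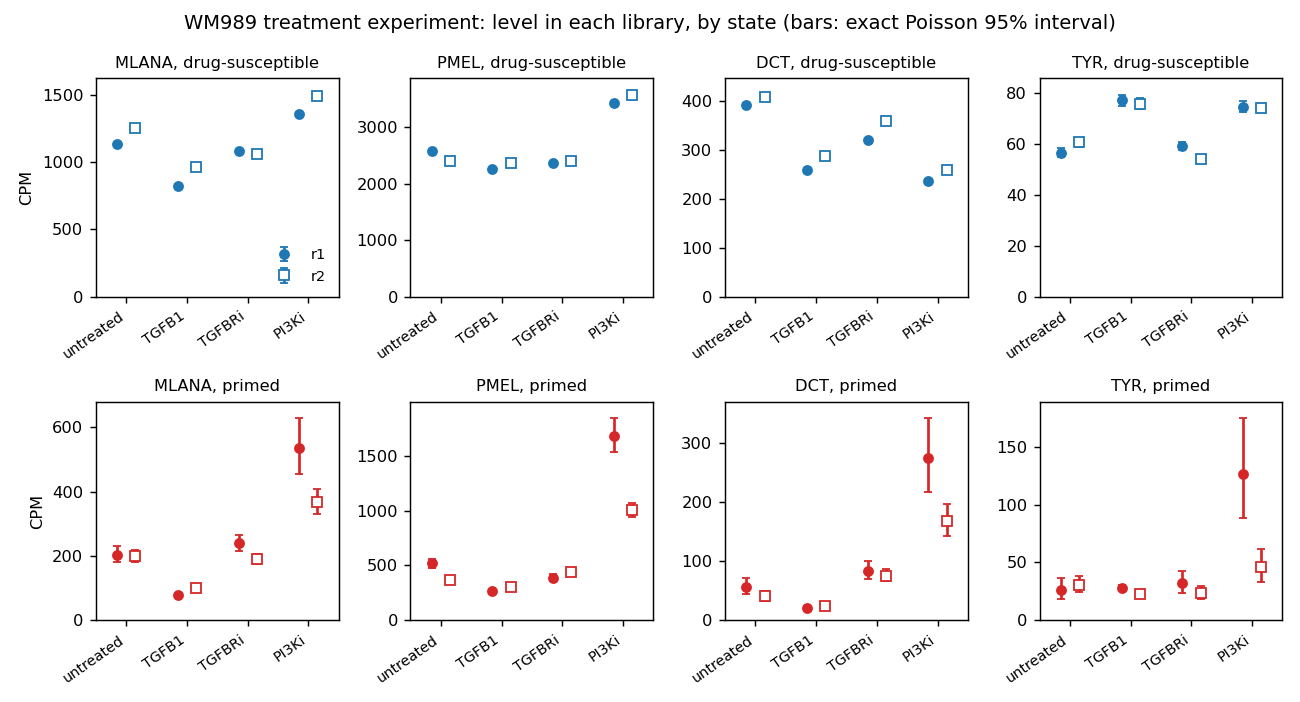
CPM of MLANA, PMEL, DCT and TYR in each of the 8 treatment libraries, drug-susceptible cells above and primed cells below, as r1 (filled) and r2 (open) with exact Poisson 95% intervals that cover counting error only. DCT is lower with PI3Ki in drug-susceptible cells (236.5 and 259 CPM against 392 and 409) and higher in primed cells (273 and 168 CPM against 56.6 and 40.2).

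Compared with each other over all cells, PI3Ki gave higher levels than TGFBRi for PMEL (0.66 ± 0.08), MLANA (0.52 ± 0.08), TYR (0.50 ± 0.07), RAB27A (0.37 ± 0.06) and SLC24A5 (0.22 ± 0.07) and a lower level for DCT (−0.34 ± 0.07), with edgeR, where 8.25% of genes were higher and 8.77% lower. TYRP1 (0.07), SLC45A2 (−0.08), OCA2 (0.11) and GPR143 (0.09) did not pass. The SLC24A5 call was kept in 3 of 8 alternatives, and was lost without either PI3Ki library or TGFBRi replicate 2, without the replicate block and with DESeq2.

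Whether a treatment moved primed cells differently from drug-susceptible cells was tested in a fit with a term for each library, a comparison chosen after the values were seen. Of 30 gene and treatment pairs, 7 passed. With TGFB1 the change in primed minus that in drug-susceptible cells was −0.56 ± 0.11 for MLANA, −0.34 ± 0.10 for PMEL and −0.55 ± 0.14 for RAB27A (3 of 10 members, against 9.98% of genes). With TGFBRi it was 1.0 ± 0.17 for DCT (0.551% of genes). With PI3Ki it was 0.63 ± 0.13 for MLANA, 0.87 ± 0.11 for PMEL and 2.60 ± 0.18 for DCT (1.21% of genes). The fit shared the spread across genes (infinite prior degrees of freedom), and DCT under PI3Ki was the only one of these 7 that passed in all 6 alternatives run. Without TGFB1 replicate 1 none of the 3 TGFB1 pairs passed, and without untreated replicate 2 the TGFBRi pair, RAB27A with TGFB1 and MLANA with PI3Ki did not. PMEL with TGFB1 was also lost with DESeq2 and without TGFB1 replicate 2 or untreated replicate 1, RAB27A with TGFB1 without TGFB1 replicate 2, and MLANA with PI3Ki without PI3Ki replicate 1. Without the replicate block the counts fell to 1, 0 and 1. At an unadjusted p under 0.05 the counts were 7, 2 and 6 of 10 members for TGFB1, TGFBRi and PI3Ki, against 20.1%, 7.44% and 7.83% of genes, and the 6 take in OCA2, which had no UMI in the PI3Ki primed sums.

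Other genes of the pathway were counted from a list of regulators, biogenesis genes, transport genes and other MITF targets, and their values are log2 fold changes by edgeR. With TGFB1 over all cells, 10 of 23 biogenesis genes fell and 3 rose, 3 of 4 transport genes tested fell and 1 rose, 4 of 7 other MITF targets fell and 1 rose, and 1 of 7 regulators tested went each way. The shares of all genes were 12.7% falling and 16.3% rising. The largest falls were TPCN2 (−0.80), RAB38 (−0.74), CAPN3 (−0.59) and SYTL2 (−0.53), and the largest rises ATP7A (0.68), LEF1 (0.54), PPARGC1A (0.42) and MLPH (0.41). MITF fell (−0.46 ± 0.07, edgeR adjusted p = 2.18e-05), and SOX10 did not pass (−0.17 ± 0.07, edgeR adjusted p = 0.0642). In drug-susceptible cells, where 8.56% of all genes rose and 6.32% fell, 2 of 7 regulators rose and 0 fell, 4 of 23 biogenesis genes rose and 6 fell, 1 of 4 transport genes fell, and 2 of 7 other targets rose and 1 fell. There LEF1 (0.74), ATP7A (0.73), PPARGC1A (0.68) and MFSD12 (0.47) rose most, TPCN2 (−0.54), MYO5A (−0.49), RAB38 (−0.45) and HPS4 (−0.28) fell most, and MITF (−0.15 ± 0.07) and SOX10 (0.14 ± 0.07) did not pass. The sums over all cells also carry the rise in the primed share given above. In primed cells, where 7.09% of all genes fell, 5 of 7 regulators, 7 of 23 biogenesis genes, 2 of 4 transport genes and 3 of 7 other targets fell and 1 transport gene rose (6.21% of all genes rose), led by EDNRB (−1.36), MREG (−1.30), SYTL2 (−1.26) and CD63 (−1.05), with MLPH higher (0.50), MITF at −0.91 and SOX10 at −1.04. These falls also compare cells of cluster 4 with cells of cluster 10. In cluster 10 alone SOX10 (0.83 ± 0.22, edgeR adjusted p = 0.0349), 1 of 7 regulators tested, and RAB38 (0.82 ± 0.22), 1 of 21 biogenesis genes tested, rose, and the other pathway genes tested did not pass, among them MITF (0.57 ± 0.19). Over all cells, where 2.53% of all genes passed in either direction, TGFBRi lowered MREG (−0.42), MFSD12 (−0.41) and TFAP2A (−0.32). PI3Ki raised 1 regulator, 2 biogenesis genes, 1 transport gene and 1 other target, where 5.83% of all genes rose and 6.83% fell. EDNRB (0.52), MLPH (0.51), BCL2A1 (0.34) and HPS4 (0.33) rose most, and PPARGC1A (−1.79), TPCN2 (−0.43) and HPS3 (−0.20) fell. MITF and SOX10 passed with neither inhibitor over all cells. In drug-susceptible cells MITF was at 322 CPM with TGFBRi, 357 CPM with PI3Ki and 350 CPM in untreated. SOX10 was at 137, 137 and 136 CPM in the same order.

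Chromatin at the members' starts was read from peaks called in each of 12 ATAC-seq libraries, as the highest fold enrichment of a peak within 1 kb of the canonical start. The 3 marker-negative libraries were compared with the 9 marker-high ones by an exact two-sided permutation test over 220 splits, whose smallest p is 0.00455. SLC24A5 was the member that separated, at 26.0, 22.6 and 24.2 in marker-negative and 13.2 to 19.7 in marker-high libraries (exact permutation p = 0.00455), where 0.642% of 14176 protein-coding starts were higher in every marker-negative library while 7.53% had an exact p under 0.05 in either direction and 2.37% in that one. Adjusted over all starts its p was 0.356, so it did not pass. Its exact p was already the smallest that 220 splits allow, and a wider separation could not have lowered the adjusted value. The adjustment therefore cannot decide whether this start differs. DCT (64.3 and 55.3 on average, exact permutation p = 0.127), PMEL (29.0 and 32.1, p = 0.318) and TYR (28.8 and 26.1, p = 0.427) did not separate. MLANA had a low peak in all 12 libraries, at 8.73 on average in marker-negative and 10.8 in marker-high libraries (exact permutation p = 0.0545). OCA2 (23.3 and 23.0), GPR143 (11.9 and 10.7), SLC45A2 (48.7 and 43.7) and RAB27A (46.9 and 51.5) overlapped between the sorts. TYRP1 had no peak within 1 kb in any library.

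With the window widened to 5 kb, PMEL took in a peak centred at −5046 to −4682 bases (upstream) that was higher in marker-negative libraries (71.3 and 48.1 on average, exact permutation p = 0.00909, 0.3003 adjusted over 16585 starts), opposite to its start. TYRP1 took in a peak that reached into the window and was centred 5026 to 5477 bases downstream, at 7.33 in marker-negative and 11.3 in marker-high libraries (exact permutation p = 0.0455, adjusted 0.484). In that window 9.38% of starts had an exact p under 0.05, and neither gene passed after adjustment. There the smallest possible exact permutation p (0.00455, SLC24A5) had an adjusted value of 0.234, so no start could pass with these libraries. The PMEL peak lies on the side of the gene where CDK2 starts. Sorted fractions hold different mixes of cells, and a change in the mix and a change per cell cannot be told apart.

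**Figure D5:**
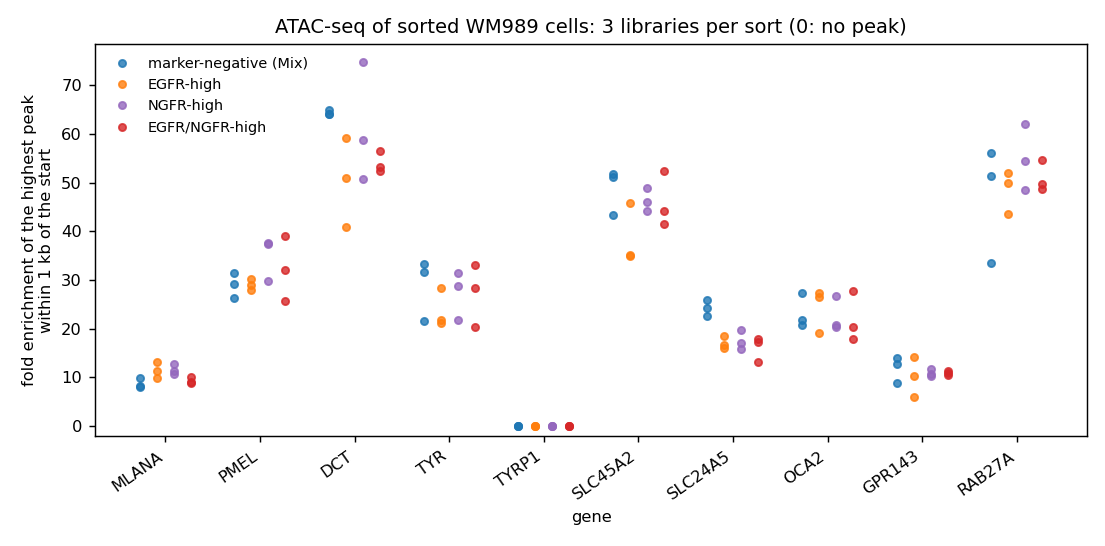
Fold enrichment of the highest ATAC-seq peak within 1 kb of each gene's canonical start in 3 libraries of each of 4 sorts (marker-negative, EGFR-high, NGFR-high, EGFR/NGFR-high; 0 where no peak was called). SLC24A5 is the only gene whose 3 marker-negative libraries (22.6 to 26.0) all lie above the 9 others (13.2 to 19.7), and TYRP1 has no peak.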

How the data were processed

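Single-cell RNA was measured in untreated WM989 cells (8 wells, 1 sample), untreated WM983B cells (1 sample) and WM989 cells of 4 treatments with 2 replicates each, and chromatin accessibility in 12 ATAC-seq libraries. The deposited matrices hold raw UMI counts from 10x 3′ libraries, which the authors aligned to hg38 with Cell Ranger without equalizing depth, together with cluster, state, well and treatment of each cell that passed their filters. For ATAC-seq the authors deposited MACS2 (2.1.1.20160309) peak lists per library, with fold enrichment as a ratio over background and −log10 p and q values, after alignment with Bowtie2 2.3.4.1 and SAMtools 1.1. Of these columns the fold enrichment was used, and the −log10 q values deposited by the authors served for the stricter alternative. No doublet caller was run here.

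CPM is a gene's UMIs scaled to 1000000 UMIs of the group of cells named, with exact Poisson 95% intervals. Shares of cells carry exact Clopper-Pearson 95% intervals, and cells were thinned to 10000 UMIs (WM989), 30000 (WM983B) or 5000 (treatment experiment, where shallower cells were left out). Counts were summed per library and state for libraries with at least 20 primed cells, filtered with filterByExpr, scaled by TMM and tested two-sided with edgeR 4.0.16 (quasi-likelihood) in R 4.3.3, with treatment and replicate as terms, a threshold of 0.05 and adjustment over all genes. SE is the log2 fold change divided by the square root of F. The difference between states was fitted over 16 sums. DESeq2 1.42.0, no replicate block, other scaling and filters and leaving out each library were the alternatives. Across genes, replicate 2 minus replicate 1 correlated between every pair of treatments (r 0.256 to 0.365), and the methods split each replicate's own expanded cells over the treatments, so replicate was kept as a term. Whether the treatment labels that begin with Mix and with Primed belong to r1 or r2 of the cell labels was not settled, so r1 and r2 only number replicates.

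Peaks were assigned to GENCODE v44 canonical starts within 1 kb and tested by enumerating all 220 splits with numpy 2.4.6. The ATAC-seq p was adjusted over all protein-coding starts, not over the members as first planned. The edgeR fit was checked on simulated counts in which 200 genes were changed. The naming rule took all 10 members in each comparison, some of those that did not pass being given by their range, and from the pathway list those past the threshold, at most the 4 largest each way, plus MITF and SOX10. Genes of like pattern were the 8 with the highest Pearson r. Members and lists were chosen with earlier results of these data known. The tests restricted to 1 cluster, pathway genes included, and the difference between states were added after the data were seen.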

Additional observations from a re-analysis of the deposited data

Results flagged for a closer look

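RAB27A in the drug-susceptible cells of well 5, at 155.5 CPM, stood apart from the other 7 wells of untreated WM989. It was 1 of 20 groups of 8 wells examined. Its gap to the nearest well passed a rule that is set so that chance meets it in about 1 in 20 groups of independent wells. These wells share cultures, and that rate was not checked here.

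In the treatment experiment, 7 gene and treatment pairs changed differently in primed than in drug-susceptible cells, by the edgeR test of that difference (primed minus drug-susceptible, log2). With TGFB1 these were MLANA (−0.56, adjusted p = 9.84e-06), PMEL (−0.34, adjusted p = 0.0117) and RAB27A (−0.55, adjusted p = 0.00116). With TGFBRi it was DCT (1.0, adjusted p = 3.37e-06). With PI3Ki they were MLANA (0.63, adjusted p = 0.000539), PMEL (0.87, adjusted p = 1.76e-11) and DCT (2.60, adjusted p = 3.29e-42). The adjusted p-values rest on a spread shared across genes, and the comparison was chosen after the values were seen. Over all genes 9.98% (TGFB1), 0.551% (TGFBRi) and 1.21% (PI3Ki) passed this test. Of the 7 pairs, only DCT with PI3Ki was kept in every alternative run. The PI3Ki primed sums came from 25 and 70 cells, and most TGFB1 primed cells were in another cluster than the untreated ones, whose part was not tested.

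OCA2 moved in opposite directions between the lines, with a log2 ratio of primed to drug-susceptible CPM of −1.53 in WM983B and a higher primed level in all 8 wells of WM989. The difference between the lines was not tested, and WM983B is 1 library.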

How the results depend on the processing

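Member counts that moved by over 1.5 times were these. DESeq2 gave 1 in place of 0 for TGFBRi over all cells and in drug-susceptible cells (2.43% and 2.39% of all genes), 3 in place of 6 for TGFB1 in primed cells (4.56% of all genes in place of 13.3%) and 0 in place of 1 for TGFBRi in primed cells (0.633%). Without the replicate block the counts were 3 for TGFB1 and 3 for PI3Ki in drug-susceptible cells (5 and 6 with it), where calls over all genes went from 14.9% to 6.64% and from 12.1% to 3.18%, 0 for TGFBRi in primed cells (0.0823%) and, for the difference between states, 1, 0 and 1 with TGFB1, TGFBRi and PI3Ki (3, 1 and 3 with it), where 4.19%, 0.0216% and 0.0378% of all genes passed. Only cluster 1 gave 3 for TGFB1 in drug-susceptible cells (9.98% of genes). Only cluster 10 gave 0 for TGFBRi (0.0527%) and 3 for TGFB1 in primed cells, where the fitted sign with TGFB1 turned for all 8 members tested: MLANA (0.83), PMEL (1.44) and TYR (1.33) passed as higher (TYR had not passed before), while DCT (0.28), SLC45A2 (1.05), SLC24A5 (1.26) and RAB27A (0.25) no longer passed and GPR143 (0.12) passed in neither fit. The ATAC-seq count at an unadjusted p under 0.05 was 3 with a 5 kb window (9.38% of all starts) against 1 (7.53%), with the sign for PMEL turned (23.2 higher in marker-negative). The cause of these changes was not tested.

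Leaving out 1 library at a time gave counts of 8 to 8 (TGFB1), 0 to 1 (TGFBRi) and 3 to 6 (PI3Ki) over all cells, 3 to 5, 0 to 1 and 3 to 5 in drug-susceptible cells, 3 to 5, 0 to 0 and 3 to 4 in primed cells, 5 to 6 for PI3Ki against TGFBRi, and 0 to 2, 0 to 1 and 2 to 4 for the difference between states. Over all genes these fits called 16.7% to 22.0%, 0.881% to 6.02% and 3.77% to 6.82% over all cells, 5.33% to 11.3%, 1.11% to 6.75% and 3.41% to 6.66% in drug-susceptible cells, 5.19% to 6.38%, 0.151% to 0.256% and 0.797% to 1.17% in primed cells, 6.04% to 17.0%, and 4.15% to 6.28%, 0.328% to 0.480% and 0.690% to 0.862%. The TGFB1 difference was 0 without TGFB1 replicate 1, and the TGFBRi difference was 0 without untreated replicate 2. The lone sample left in a treatment was assumed to vary like the others. Of 982 treatment values under an alternative, 887 stayed on the same side of the threshold (values that passed in neither fit were not held to a sign), 77 no longer passed, 11 newly passed, and 7 that passed in at least 1 of the fits changed sign. ATAC-seq libraries of the same replicate number correlated weakly at most (r −0.05 to 0.13, against −0.12 to 0.06 for different numbers). Replicate was not a term in the main ATAC-seq test and was used as a block in 1 alternative. Thinning to 5000 UMIs in place of 10000 was judged on the difference in share between primed and drug-susceptible WM989 cells. That difference moved by at least 5 percentage points for 7 of 10 members. With 25 to 271 primed cells in the libraries other than TGFB1, OCA2 and TYRP1 were removed from the primed-cell fit by the filter on low counts.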
